A study of Mus musculus with 12 samples.

Results

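The Slc25 genes encode the mitochondrial carriers, and 36 of the 11289 genes measured in these mouse livers have a name that starts with Slc25a. Every gene of the table with such a name is a member. The table itself holds only genes that passed a floor on their values, and the family was picked with earlier results of these data known. Bulk liver RNA was sequenced from 12 C57BL/6J mice in 3 groups of 4. Control mice (Ctrl) are labelled only as control. The Con A mice received concanavalin A, a T cell mitogen from the jack bean that sets off hepatitis, at 15 mg/kg through the tail vein, with PBS 30 min afterwards. The Con A + MSCs mice received the same lectin and, 30 min later, human umbilical cord mesenchymal stromal cells (hUC-MSCs in the labels) in PBS. The livers of the Con A groups were taken at 24 h, and no mouse carried an altered gene. The labels give the mice as 8 to 10 weeks old, whereas the methods of the study give a younger age and another number of infused cells, so neither is settled here. The comparisons ask which carriers lectin hepatitis moved and which differed once stromal cells had been given.

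Mitochondrial carriers are small proteins of the inner membrane that exchange nucleotides, phosphate, di- and tricarboxylates, amino acids, carnitine esters and cofactors between the cytosol and the matrix. Most work as exchangers, so that what enters is paid for by what leaves. In hepatocytes they join the urea cycle, gluconeogenesis, fatty acid synthesis and oxidation, and heme synthesis to the mitochondrion.

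Each value below is the whole-number expression value per gene and mouse that the authors deposited, already normalized between mice, so it is an expression level without a depth of its own. The total was nearly the same in each mouse (17649654 to 17657159), the median gene was at 352 in all 12 mice, and the depth behind a value is unknown. Values of strongly expressed genes were tied: 10 genes shared the largest value, 341028, in every mouse. Member values ran from 28 to 8514. Every gene of the table reached 64 in at least 2 mice, and 4 of the 36 members were below 64 in some mouse. A gene was called at a limma Benjamini-Hochberg adjusted p below 0.05 over all genes with a fold above 1.5, and fold changes are on the scale of log2(value + 1), given with their standard error (SE).

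The tissue carried its expected hepatocyte genes: all 8 hepatocyte markers were in the table, and Alb, albumin, stood at the largest value in every mouse. The summed level of these 8 ranged from 1125923 to 1352928 in Ctrl, from 558552 to 574109 in Con A and from 546980 to 648331 in Con A + MSCs. After Con A 5 of the 8 fell, and Alb, Tat and Hnf4a were not called. Serpina1c stood at the tied value 341028 in all Ctrl mice, and Ttr and Cyp2e1 reached it there, so the size of the fall is not exact. The summed level of the 4 neutrophil markers found of 5 was 58 to 133 in Ctrl, 730 to 1677 in Con A and 750 to 1569 in Con A + MSCs. The 5 leukocyte markers found of 6 summed to 2030 to 2417 in Ctrl, 2904 to 4220 in Con A and 2358 to 3805 in Con A + MSCs. Of 6 T cell markers only Lck was in the table, at 10 to 25, 76 to 138 and 80 to 90. The 4 endothelial markers summed to 1764 to 2572 in Ctrl, 663 to 944 in Con A and 971 to 1162 in Con A + MSCs, and the 6 macrophage and monocyte markers to 2722 to 3979, 1687 to 2072 and 959 to 2357. Within these 6, Clec4f of Kupffer cells (log2 fold change of -4.90), Csf1r (-2.57) and Lyz2 (-1.39) fell after Con A, while Cd68 (2.89) and Ccr2 (0.72) rose, so the sum hides both directions. Ly6c2 of inflammatory monocytes, the neutrophil genes S100a8, S100a9 and Mmp8, and Lck reached 64 in treated mice alone, and Clec4g of sinusoidal endothelium in controls alone. These genes entered the table through the groups where they are high, so their differences are a description. The 2 cholangiocyte markers found of 4 summed to 170 to 274 in Ctrl, 348 to 1011 in Con A and 302 to 426 in Con A + MSCs, with Sox9 up by 1.83 after Con A. The 4 stellate and stromal markers summed to 4003 to 6796, 5873 to 6830 and 4246 to 9039, and of these Lrat fell by 2.24 on the log2 scale. Of the markers in the table, 1 neutrophil gene was listed at 0 in some mouse. These levels moved together with the carrier changes below, and their part in those changes was not tested. In bulk liver, fewer cells of a type and less RNA per cell cannot be told apart.

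After Con A, 9 carriers fell and 2 rose. The calcium-regulated ATP-Mg/phosphate carrier Slc25a23 fell most, with a log2 fold change of -3.42 ± 0.51 (SE, n = 4 mice per group; 10.7-fold), followed by the oxodicarboxylate carrier Slc25a21, the dicarboxylate carrier Slc25a10, Slc25a48 and Slc25a45. Slc25a47, Slc25a44, Slc25a16 and Slc25a13 fell by less than 2-fold, and Slc25a24 and Slc25a30 rose by 2.45-fold and 2.4-fold. The 11 called members are 30.6% of the 36, against 38.8% of all genes. They include Slc25a24, which entered the table through Con A mice alone, so its place in these counts is a description. Upward calls made up 5.56% of the members and 19.5% of all genes, and downward calls 25% and 19.2%. The 4 Con A and 4 Ctrl mice did not overlap for 17 members (47.2%, against 50.4% of all genes), of which 3 were higher in Con A (8.33%, against 27.1%) and 14 lower (38.9%, against 23.4%). The median log2 fold change was -0.11 over the 36 members and 0.05 over all genes. Slc25a1 lay just short of the fold limit at -0.57. The count stayed between 10 and 12 when any 1 mouse was left out, but the called members changed. Without Ctrl mouse 4, 9 of the 11 were kept, Slc25a13 and Slc25a47 were lost, and Slc25a33 and Slc25a36 were gained. Without Con A mouse 4, 9 were kept, Slc25a13 and Slc25a30 were lost, and Slc25a1, Slc25a26 and Slc25a33 were gained.

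**Figure D1:**
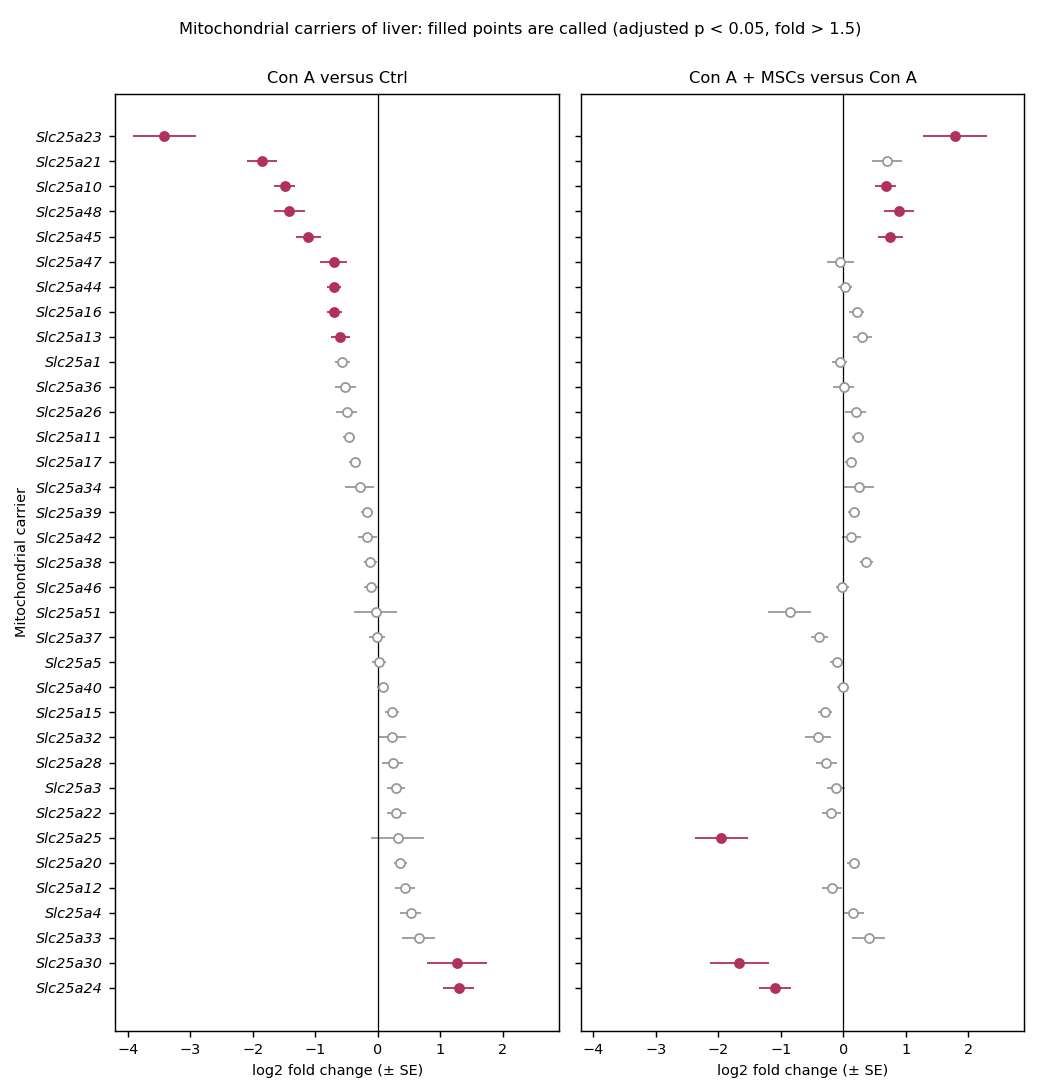
Log2 fold change (x axis) of 35 of the 36 carriers (y axis), with whiskers of 1 SE, for Con A against Ctrl on the left and Con A + MSCs against Con A on the right. Filled points passed the call; Slc25a23 lies farthest left after Con A at -3.42 and farthest right after MSCs at 1.79, and Slc25a25 is called on the right and not on the left.

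With MSCs after Con A, 4 carriers were higher than in Con A alone and 3 were lower. Slc25a23, Slc25a48, Slc25a45 and Slc25a10 were higher by 1.79, 0.89, 0.75 and 0.68 on the log2 scale, and Slc25a25, Slc25a30 and Slc25a24 were lower, with log2 fold changes of -1.95, -1.66 and -1.09. The 7 called members are 19.4% of the 36, against 8.58% of all genes. Here too the place of Slc25a24 in the counts is a description, since Con A mice alone brought it into the table. Calls upward took 11.1% of the members and 4.2% of all genes, and calls downward 8.33% and 4.38%. The groups did not overlap for 7 members (19.4%, against 23.5% of all genes), 3 of them higher with MSCs (8.33%, against 11.9%) and 4 lower (11.1%, against 11.6%). The median log2 fold change was 0.08 over the members and 0.00 over all genes. These calls lay close to the threshold, and single mice decided them. In limma fits without Con A mouse 1, MSCs mouse 2 or MSCs mouse 3, no member was called (13, 11 and 12 members had an unadjusted p below 0.05), and of all genes only 7, 18 and 7 were. Without Con A mouse 4 there was 1 called member (285 of all genes), and without Con A mouse 3 or MSCs mouse 1 there were 3 (563 and 506 of all genes). With only the 8 mice of these groups in the fit, 4 members and 722 of all genes were called, and Slc25a23, Slc25a48 and Slc25a10 were not (limma adjusted p = 0.0791, 0.0573 and 0.056). With no trend in the variance, 5 members and 830 of all genes were called, and Slc25a23 and Slc25a30 were not (adjusted p = 0.0512 and 0.0516). The Con A mice are the same in this comparison and the one before, so the comparisons are not independent, and their values are only set side by side below.

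Against control mice, 7 carriers were lower in the Con A + MSCs mice and 2 were higher. Slc25a23, Slc25a25, Slc25a21, Slc25a10, Slc25a47, Slc25a44 and the citrate carrier Slc25a1 were lower, with log2 fold changes from -1.63 to -0.62. Slc25a33, a pyrimidine nucleotide carrier, and Slc25a4 were higher, at 1.06 and 0.69. The 9 called members make up 25%, against 26.7% of all genes, with 5.56% upward (13.6% of all genes) and 19.4% downward (13.1%). There was no overlap for 11 members (30.6%, against 37.9%), 3 higher (8.33%, against 20.6%) and 8 lower (22.2%, against 17.3%). The median log2 fold change was -0.20 over the members and 0.04 over all genes. Leaving out any 1 mouse gave 7 to 11 members. The call on Slc25a23 was lost without Ctrl mouse 2 or 4 or without MSCs mouse 1, 3 or 4 (adjusted p at most 0.0613). The call on Slc25a1 was lost to the fold limit without MSCs mouse 1 or 2 (log2 fold changes of -0.58 and -0.56), and that on Slc25a47 without Ctrl mouse 4 (-0.53).

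The 3 ATP-Mg/phosphate carriers, which exchange cytosolic ATP-Mg for matrix phosphate in response to calcium and so set the matrix pool of adenine nucleotides, moved in unlike ways. Slc25a23 (ENSMUSG00000046329, mm10 chr17:57043711-57059863, minus strand) had values of 3798, 5904, 5380 and 5552 in Ctrl mice 1 to 4, of 590, 1194, 558 and 130 in the Con A mice, and of 1576, 2645, 1553 and 1133 in the Con A + MSCs mice. Every Con A value was below every control value, with Con A mouse 4 the lowest and mouse 2 the highest of its group. The MSCs mice lay below all controls and overlapped the Con A mice, since MSCs mouse 4 was under Con A mouse 2. The means were 5158.5 ± 933, 618 ± 438 and 1726.8 ± 645 (SD, n = 4). The log2 fold change was -3.42 ± 0.51 for Con A against Ctrl (limma adjusted p = 0.000138), 1.79 ± 0.51 for Con A + MSCs against Con A (3.45-fold, adjusted p = 0.0416) and -1.63 ± 0.51 for Con A + MSCs against Ctrl (adjusted p = 0.0226). The fall after Con A passed in each of the 12 fits that left out 1 mouse. The call of Con A + MSCs against Con A was lost in 9 of them: without Ctrl mouse 2, 3 or 4 and without mouse 1, 3 or 4 of Con A or mouse 1, 2 or 3 of the MSCs group, with adjusted p values from 0.0129 to 0.117 over the 12 fits. Without Con A mouse 4 the log2 fold change was 1.17.

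Slc25a25 (ENSMUSG00000026819, chr2:32414487-32431119, minus strand) is a paralog that was lowest in the mice given MSCs. Its values were 1358, 1807, 2023 and 3801 in Ctrl, 2358, 1042, 3359 and 5560 in Con A, and 616, 578, 672 and 860 in Con A + MSCs. The control and Con A mice overlapped widely, and all 4 MSCs mice lay below all 8 others. Con A against Ctrl gave 0.32 ± 0.43 on the log2 scale (limma adjusted p = 0.543). Con A + MSCs was lower than Con A, with a log2 fold change of -1.95 ± 0.43 (3.86-fold, adjusted p = 0.0248), and lower than Ctrl, at -1.63 ± 0.43 (adjusted p = 0.0094). The call against Con A was lost without Con A mouse 1 or MSCs mouse 2 or 3 (adjusted p at most 0.0761), and the call against Ctrl passed in all 12 fits.

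Slc25a24 (ENSMUSG00000040322, chr3:109123149-109168457, plus strand), the third of these carriers, was the least expressed member in Ctrl, though not in Con A. It had values of 38, 30, 32 and 29 in Ctrl, 75, 69, 62 and 128 in Con A and 40, 42, 28 and 40 in Con A + MSCs. All Con A mice lay above all 8 others, and Con A mouse 4 stood highest. The 3 values of 64 or more that let this gene into the table all came from Con A mice, so a difference from the other groups was built into its selection and counts as a description. The log2 fold change was 1.29 ± 0.25 for Con A against Ctrl (limma adjusted p = 0.000881) and -1.09 ± 0.25 for Con A + MSCs against Con A (adjusted p = 0.0255, lost without Con A mouse 1 or 4 or MSCs mouse 2 or 3, where it was at most 0.0761). Against Ctrl, the MSCs mice gave 0.20 ± 0.25 (adjusted p = 0.546). When genes with a mean below 100 over the 12 mice were left out, Slc25a24 dropped out, and 10 of 34 members were called after Con A and 6 of 34 with MSCs (3544 and 892 of all genes).

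The 250 bases before the start of each of these genes are printed because the 3 paralogs share a transport function and did not move together; they are from RefSeq on GRCm38.p6, 5′ to 3′ on the gene's strand, and capitals mark the letters of a GC box (GGGCGG) or a CCAAT box (CCAAT) on either strand. The windows are chr17:57059864-57060113 (minus strand) for Slc25a23, chr3:109122899-109123148 (plus) for Slc25a24 and chr2:32431152-32431401 (minus) for Slc25a25. Where several windows are listed for a gene the one nearest to its start in the table was taken, of 2 for Slc25a23 (0 bases away) and of 3 for Slc25a25 (32 bases away).
Slc25a23: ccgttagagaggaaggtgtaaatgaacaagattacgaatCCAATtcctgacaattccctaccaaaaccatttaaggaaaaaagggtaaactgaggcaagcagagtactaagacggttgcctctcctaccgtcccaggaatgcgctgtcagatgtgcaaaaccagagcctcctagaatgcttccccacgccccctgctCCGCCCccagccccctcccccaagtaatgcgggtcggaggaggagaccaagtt
Slc25a24: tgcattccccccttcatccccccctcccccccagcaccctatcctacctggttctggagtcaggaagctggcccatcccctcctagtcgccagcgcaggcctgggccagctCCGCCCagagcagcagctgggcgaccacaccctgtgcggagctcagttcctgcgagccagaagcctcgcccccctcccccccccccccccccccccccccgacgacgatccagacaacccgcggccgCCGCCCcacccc
Slc25a25: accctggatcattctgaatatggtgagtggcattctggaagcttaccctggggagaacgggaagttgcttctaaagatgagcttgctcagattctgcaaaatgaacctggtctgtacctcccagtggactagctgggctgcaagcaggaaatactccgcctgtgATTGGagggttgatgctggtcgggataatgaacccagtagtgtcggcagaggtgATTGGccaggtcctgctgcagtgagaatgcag
Slc25a23 has 1 GC box and 1 CCAAT box, Slc25a24 has 2 GC boxes and no CCAAT box, and Slc25a25 has 2 CCAAT boxes and no GC box. Of the 36 members, 29 had such a window, and 28 of these had a start within 500 bases of the table's. The GC box was in 20 of the 29 (69%), against 32.7% of all 32851 windows of that length, and the CCAAT box in 15 (51.7%, against 33.8%). The TATA box TATAAA was in 0 of 29 (against 12.4% of all windows), the E-box CACGTG in 4 (13.8%, against 6.02%) and the cyclic AMP response core TGACGT in 3 (10.3%, against 6.47%). The AP-1 site TGANTCA was in 2 (6.9%, against 6.75%), the nuclear receptor half-site AGGTCA in 4 (13.8%, against 14%) and the STAT palindrome TTCNNNGAA in 1 (3.45%, against 7.02%). All 8 were searched on both strands, and matches of different motifs may share bases. The median GC content was 58.4% over the members' windows and 52.4% over all windows. Each member gave 1 window, the nearest to the start of a gene measured in liver. All windows were counted without such a choice, also where a gene has several, so these shares are not matched. A match here describes letters and shows no binding.

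None of the other 5 measured members of the adenine nucleotide and phosphate group was called after Con A or with MSCs against Con A. Of the group's 11 listed genes 8 were in the table, and after Con A 1 rose, 1 fell and 6 were not called. Of all genes, 19.5% rose and 19.2% fell. The group's median log2 fold change was 0.16. The ADP/ATP translocase Slc25a5 and the phosphate carrier Slc25a3, which together feed ATP synthase, had control means of 4245.8 ± 153 and 5228.2 ± 415 (SD, n = 4), and Con A means of 4337 ± 624 and 6468.8 ± 1376.6. Neither was called (log2 fold changes of 0.02 and 0.29). The second translocase, Slc25a4, was at 98 to 110 in Ctrl, 127 to 182 in Con A and 122 to 196 in Con A + MSCs. Both treated groups lay above all controls; the log2 fold change against Ctrl was 0.53 ± 0.17 for Con A, which stayed under the fold limit, and 0.69 ± 0.17 for Con A + MSCs (limma adjusted p = 0.00604). Slc25a42, which carries coenzyme A, had log2 fold changes of -0.17 after Con A and 0.13 with MSCs and was not called. The peroxisomal carrier Slc25a17 was at 650 to 808 in Ctrl and at 572 to 586 in Con A, without overlap, but the difference of -0.36 ± 0.09 on the log2 scale stayed under the fold limit.

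All 4 di- and tricarboxylate carriers had lower values after Con A (5325 of all 11289 genes did). Of the 4, 2 were called as lower (19.2% of all genes were). Slc25a10 (ENSMUSG00000025792, chr11:120491840-120499187, plus strand) exchanges malate or succinate for phosphate. Its values were 2931, 2687, 2642 and 3001 in Ctrl, 974, 1374, 1008 and 738 in Con A, and 1562, 1972, 1604 and 1332 in Con A + MSCs. The control mice stood apart from all others, and the treated groups overlapped only through Con A mouse 2 and MSCs mouse 4. On the log2 scale Con A differed from Ctrl by -1.49 ± 0.17 (2.81-fold, limma adjusted p = 2e-05), 0.68 ± 0.17 for Con A + MSCs against Con A (1.6-fold, adjusted p = 0.0305) and -0.81 ± 0.17 for Con A + MSCs against Ctrl (adjusted p = 0.00257). The first and the third passed in every fit that left out 1 mouse. The call against Con A was lost in 6 of 12 such fits, without Con A mouse 1, 3 or 4 or MSCs mouse 1, 2 or 3 (adjusted p from 0.0103 to 0.0938).

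Slc25a21 (ENSMUSG00000035472, chr12:56712634-57197472, minus strand) carries oxoadipate and oxoglutarate, intermediates of lysine and tryptophan breakdown. It had values of 428, 205, 262 and 252 in Ctrl, 70, 92, 66 and 77 in Con A, and 106, 174, 139 and 90 in Con A + MSCs. Both treated groups lay below all controls, and MSCs mouse 4 was the one mouse of its group to overlap Con A. Its log2 fold change was -1.85 ± 0.24 after Con A (3.61-fold, limma adjusted p = 4.97e-05), 0.70 ± 0.24 for Con A + MSCs against Con A (adjusted p = 0.0661, not called) and -1.16 ± 0.24 for Con A + MSCs against Ctrl (adjusted p = 0.00239).

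The citrate carrier Slc25a1, which exports citrate for fatty acid and sterol synthesis, was at 4030 to 4452 in Ctrl, where 3 mice share the tied value 4452. It was at 2572 to 3395 in Con A and at 2464 to 3354 in Con A + MSCs. The treated mice were all below the controls and resembled each other in range. The log2 fold changes against Ctrl were -0.57 ± 0.13 for Con A (1.48-fold, under the fold limit, limma adjusted p = 0.0023) and -0.62 ± 0.13 for Con A + MSCs (1.54-fold, adjusted p = 0.00207; the fold passed 1.5 in 10 of 12 fits that left out 1 mouse, not without MSCs mouse 1 or 2, at -0.58 and -0.56). After Con A the fold passed without Ctrl mouse 3 or Con A mouse 1 or 4. The oxoglutarate/malate carrier Slc25a11, a part of the malate-aspartate shuttle, went from 1226.2 ± 86.3 in Ctrl to 892 ± 42.7 in Con A and 1050.2 ± 84.1 in Con A + MSCs (SD, n = 4). Its groups did not overlap in either comparison with Con A, and its log2 fold changes, -0.46 and 0.23, were not called.

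Of 10 listed carriers of amino acids and the urea cycle 7 were in the table, and 3 fell after Con A, with none rising (19.2% and 19.5% of all genes fell and rose). Slc25a13 (ENSMUSG00000015112, chr6:6041218-6191317, minus strand), citrin, is the aspartate/glutamate carrier of liver and supplies cytosolic aspartate to the urea cycle. It was at 2068, 2387, 2484 and 2808 in Ctrl, at 1497, 1821, 1784 and 1342 in Con A, and at 1755, 2565, 1720 and 1941 in Con A + MSCs. Con A and control mice did not overlap, and the MSCs mice spanned the gap between them. The log2 fold change of -0.60 ± 0.15 after Con A (1.52-fold, limma adjusted p = 0.00519) lay at the fold limit and went under it without Ctrl mouse 4, Con A mouse 1 or Con A mouse 4 (-0.53, -0.57 and -0.52). Con A + MSCs against Con A gave 0.30 ± 0.15 (adjusted p = 0.18), not called.

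Slc25a44 (ENSMUSG00000050144, chr3:88410498-88425139, minus strand), which takes branched-chain amino acids into mitochondria, had values of 1285, 1204, 1084 and 1285 in Ctrl. The Con A mice were at 786, 798, 778 and 635, and the Con A + MSCs mice at 746, 898, 692 and 720. Both treated groups lay below every control and overlapped each other. The log2 fold change was -0.70 ± 0.11 for Con A against Ctrl (limma adjusted p = 0.000262) and -0.67 ± 0.11 for Con A + MSCs against Ctrl (adjusted p = 0.000648), while Con A + MSCs against Con A gave 0.03 ± 0.11 (adjusted p = 0.892).

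Slc25a48 (ENSMUSG00000021509, chr13:56438355-56474239, plus strand) was grouped here by name lists, although work on it points to choline. Its values were 138, 199, 125 and 178 in Ctrl, 70, 83, 52 and 38 in Con A, and 82, 130, 122 and 108 in Con A + MSCs. Con A mice were below all controls, and the MSCs mice reached into both ranges. Con A gave a log2 fold change of -1.42 ± 0.24 against Ctrl (2.67-fold, limma adjusted p = 0.000402) and 0.89 ± 0.24 for Con A + MSCs against Con A (1.85-fold, adjusted p = 0.0379). The second was lost without Con A mouse 1, 3 or 4 or MSCs mouse 2 or 3 (adjusted p at most 0.109). Against Ctrl, Con A + MSCs gave -0.53 ± 0.24 (adjusted p = 0.104).

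The other 4 measured amino acid carriers were not called in any of the comparisons. Slc25a15, which brings ornithine into the matrix for the urea cycle, was at 3681 to 4350 in Ctrl, 3844 to 5012 in Con A and 3624 to 4019 in Con A + MSCs. The glutamate carrier Slc25a22 had means of 3161.5 ± 306, 3937.8 ± 899 and 3386.5 ± 239 (SD, n = 4). Slc25a12, aralar, the aspartate/glutamate carrier of muscle and brain, was at 180 to 308 in Ctrl and 285 to 346 in Con A, with a log2 fold change of 0.44 ± 0.16 (1.35-fold). Slc25a38, which serves heme synthesis as a glycine carrier, had all MSCs mice (404 to 479) above all Con A mice (309 to 366), a log2 difference of 0.37 ± 0.11 with a limma adjusted p of 0.041 and a fold of 1.29, under the limit.

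Slc25a20, the carnitine/acylcarnitine carrier that brings long-chain acyl groups to oxidation, was higher in both treated groups, without overlap with the controls. It was at 1360 to 1698 in Ctrl, at 1741 to 2006 in Con A and at 1940 to 2366 in Con A + MSCs. The log2 fold changes against Ctrl, 0.36 ± 0.10 and 0.53 ± 0.10 (limma adjusted p = 0.00966 and 0.00162), stayed under the fold limit, so that neither is a call.

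Of the carriers of cofactors and nucleotides 7 of 9 listed were in the table, and 1 fell after Con A (19.2% of all genes fell). Slc25a16 (ENSMUSG00000071253, chr10:62920633-62946498, plus strand), which has been linked to coenzyme A supply, was at 788, 993, 941 and 998 in Ctrl, at 508, 597, 568 and 617 in Con A, and at 597, 623, 652 and 795 in Con A + MSCs. The Con A mice were all below the controls, and MSCs mouse 4 was the one mouse of its group to reach the control range. Its log2 fold change was -0.70 ± 0.12 after Con A (1.62-fold, limma adjusted p = 0.00035), 0.21 ± 0.12 for Con A + MSCs against Con A (adjusted p = 0.213) and -0.48 ± 0.12 for Con A + MSCs against Ctrl (under the fold limit).

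No carrier of this group was called between Con A + MSCs and Con A in the limma fit, and 1 had an unadjusted p below 0.05. That was the NAD carrier Slc25a51, chosen for mention after its values were seen, at 1050 to 2006 in Ctrl, 716 to 3184 in Con A and 708 to 928 in Con A + MSCs. The MSCs mice were below all controls and overlapped Con A through Con A mouse 2; the log2 difference from Con A was -0.86 ± 0.35 (adjusted p = 0.102). Slc25a33 was at 112 to 322 in Ctrl, 266 to 374 in Con A and 325 to 522 in Con A + MSCs, a log2 fold change of 0.65 ± 0.26 after Con A (adjusted p = 0.0514, not called) and of 1.06 ± 0.26 for Con A + MSCs against Ctrl (adjusted p = 0.00692). The S-adenosylmethionine carrier Slc25a26, the folate and FAD carrier Slc25a32 and the pyrimidine nucleotide carrier Slc25a36 were not called in any comparison, with log2 fold changes from -0.52 to 0.23 after Con A.

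None of the 4 carriers of metals and glutathione was called in any comparison by limma, and their log2 fold changes after Con A lay between -0.18 and 0.24, with no unadjusted p below 0.05. With MSCs against Con A, 1 of the 4 had an unadjusted p below 0.05. This was mitoferrin-1, Slc25a37, an iron importer, at 831 to 1081 in Con A and 563 to 798 in Con A + MSCs (log2 fold change of -0.38 ± 0.13, adjusted p = 0.0713). The glutathione carrier Slc25a39 was among the most abundant members, at 5845.2 ± 148, 5180.8 ± 306 and 5819.8 ± 345 (SD, n = 4). Its relative Slc25a40 was at 210 ± 7.9, 222 ± 18.1 and 221 ± 13.3.

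Slc25a30 (ENSMUSG00000022003, chr14:75761999-75787037, minus strand), a relative of the uncoupling proteins known from kidney, rose after Con A and was lower with MSCs. The values were 46, 174, 164 and 216 in Ctrl, 226, 212, 338 and 598 in Con A, and 103, 94, 58 and 167 in Con A + MSCs. Ctrl mouse 1 was low in its group and Con A mouse 4 high in its own. Con A mouse 2 fell just under Ctrl mouse 4, so these groups overlapped, while all MSCs mice were below all Con A mice. Con A gave a log2 fold change of 1.27 ± 0.48 against Ctrl (2.4-fold, limma adjusted p = 0.0387), and this call was lost without Ctrl mouse 1 (0.77, adjusted p = 0.108), without Con A mouse 3 or 4, without MSCs mouse 1, and with only the 8 mice of these groups in the fit (adjusted p = 0.0553). For Con A + MSCs against Con A it was -1.66 ± 0.48 (3.16-fold, adjusted p = 0.0429), lost in 8 of 12 fits, without Ctrl mouse 2 or 3, Con A mouse 1, 3 or 4 or MSCs mouse 1, 2 or 3 (adjusted p at most 0.11). Con A + MSCs against Ctrl gave -0.40 ± 0.48 (adjusted p = 0.536).

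Of the 4 measured members with an outer membrane place or no settled substrate 2 fell after Con A and 2 were not called (19.2% of all genes fell). Slc25a45 (ENSMUSG00000024818, chr19:5877808-5884884, plus strand), long without an assigned substrate, had values of 443, 351, 575 and 380 in Ctrl, 199, 236, 244 and 134 in Con A, and 370, 352, 347 and 276 in Con A + MSCs. Con A mice lay below all other mice, and the MSCs mice overlapped the controls. The log2 fold change was -1.11 ± 0.20 after Con A (2.16-fold, limma adjusted p = 0.000524), 0.75 ± 0.20 for Con A + MSCs against Con A (1.68-fold, adjusted p = 0.0347) and -0.36 ± 0.20 for Con A + MSCs against Ctrl (adjusted p = 0.167). The second was lost without Con A mouse 1 or 4 or MSCs mouse 1, 2 or 3 (adjusted p at most 0.0959).

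Slc25a47 (ENSMUSG00000048856, chr12:108851129-108856814, plus strand) is a carrier found almost only in liver. It was at 4030, 5548, 4272 and 8514 in Ctrl, at 3440, 2642, 3584 and 3532 in Con A, and at 3440, 2604, 2896 and 3910 in Con A + MSCs. The treated groups lay below the controls and had nearly the same range, and Ctrl mouse 4 stood far above its group. The log2 fold change was -0.71 ± 0.22 after Con A (1.63-fold, limma adjusted p = 0.0159) and -0.75 ± 0.22 for Con A + MSCs against Ctrl (adjusted p = 0.0165). Without Ctrl mouse 4 both went under the fold limit (-0.48 and -0.53). Between the treated groups the log2 difference was -0.05 ± 0.22. Slc25a46, an outer membrane protein of mitochondrial fission and fusion, and Slc25a34 were not called in any comparison (log2 fold changes of -0.11 and -0.29 after Con A).

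**Figure D2:**
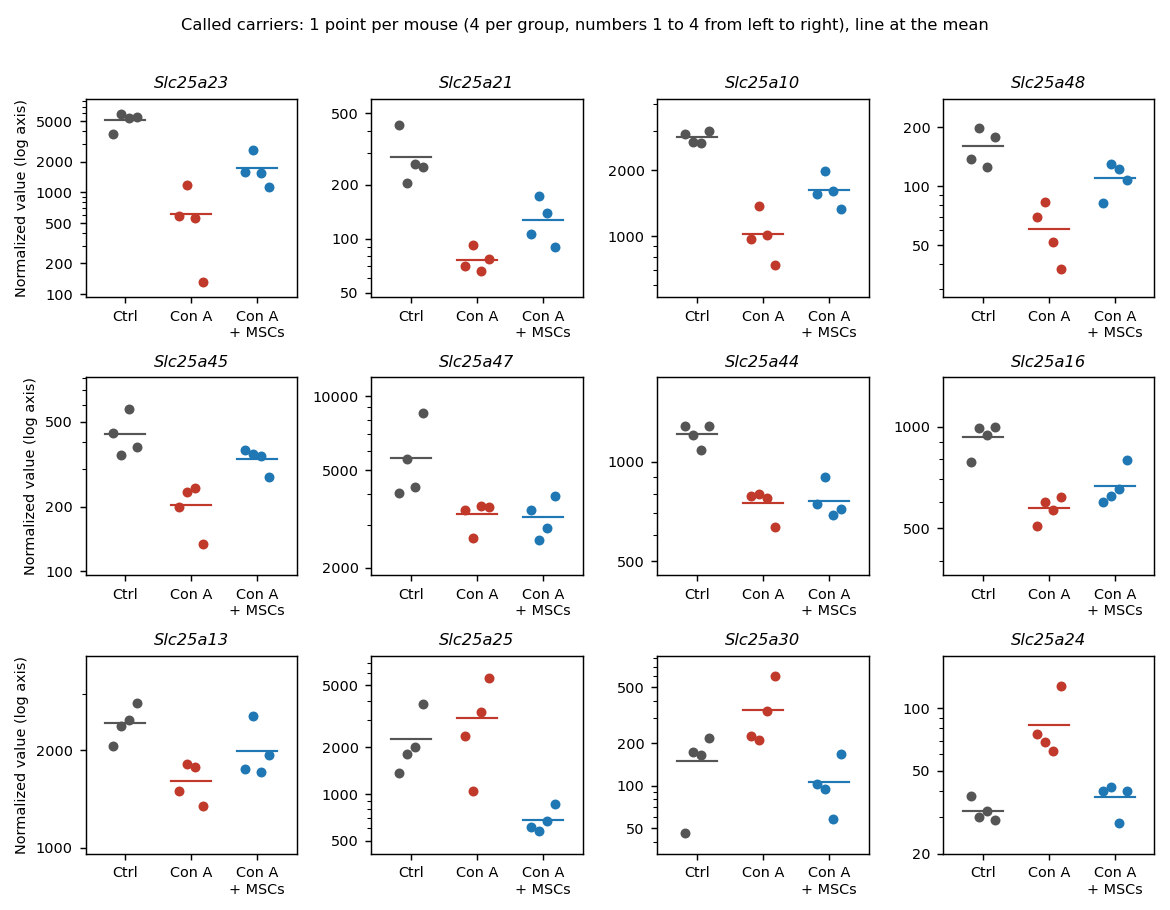
Normalized value (log y axis) of the 12 carriers called after Con A or between Con A + MSCs and Con A, in each mouse (points, numbers 1 to 4 from left to right in each group), with the mean of each group as a line. For Slc25a23 the Con A mice at 130 to 1194 lie below the MSCs mean of 1726.8 and all controls, and for Slc25a25 the MSCs mice at 578 to 860 lie below every other mouse.

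Levels of different carriers were set side by side per length of transcript. This assumes that the values were not already scaled by length, which the sources used here do not say. Of the 36 transcripts 35 were found in GENCODE M21 (Slc25a13 was not). Only 24 had the same start and end there, and Slc25a47 and Slc25a1 did not. In Ctrl, the mean value per kilobase was highest for Slc25a39 (3639.6), Slc25a47 (3538.6), Slc25a5 (3424.0) and Slc25a3 (3243.3), followed by Slc25a1 (2608.9), Slc25a23 (1534.4) and Slc25a10 (1391.6). It was lowest for Slc25a24 (9.4). The first 4 were close to each other, and the order among them was not tested. On this scale alone, glutathione, phosphate, adenine nucleotide and citrate carriers stood beside the liver carrier Slc25a47 at the head of the 35 in control livers. In Con A the mean value per kilobase of Slc25a23 was 184 and that of Slc25a25 was 873, in Ctrl 1534.4 and 637, and in Con A + MSCs 514 and 193.

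Ratios of related carriers within a mouse show unequal change. A single scale factor per mouse cancels in them, whereas a normalization that depends on rank does not. Of 7 listed pairs of paralogs 5 had both members in the table (the others were not analysed here), and 10 two-sided exact permutation tests were run on log2 ratios, with 0.0286 as the smallest p that 4 mice against 4 allow. Slc25a12 over Slc25a13, the muscle form of the aspartate/glutamate carrier over the liver form, was -3.37 ± 0.28 in Ctrl, -2.34 ± 0.28 in Con A and -2.82 ± 0.33 in Con A + MSCs (mean log2 ratio ± SD, n = 4). All Con A mice were above all controls, a difference of 1.04 (exact p = 0.0286, adjusted p = 0.0952). Slc25a4 over Slc25a5 was higher by 0.51 after Con A and Slc25a39 over Slc25a40 differed by -0.25, both without overlap (each exact p = 0.0286, adjusted p = 0.0952). No adjusted p was below 0.05, and the lowest was 0.0952. Over 10 tests it could pass only if most of them sat at the smallest p of 0.0286. The absence of a call therefore decides nothing about a single pair. For the mitoferrins Slc25a28 over Slc25a37 the difference was 0.25 after Con A and 0.11 for Con A + MSCs against Con A (exact p = 0.0857 and 0.686). Slc25a24 over Slc25a25 differed by 0.97 and 0.86, given as a description, since Slc25a24 entered the table through Con A mice alone and its 2 tests of the 10 are not read here.

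**Figure D3:**
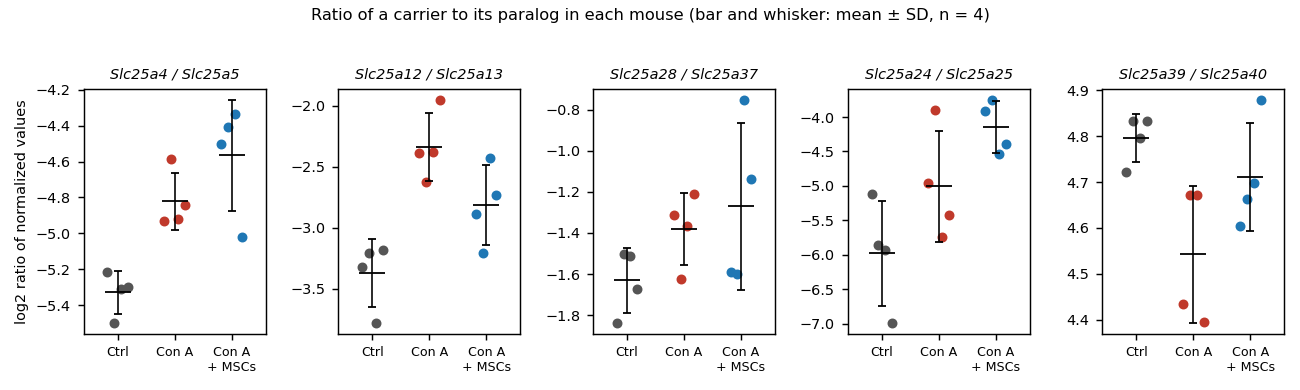
Log2 ratio of the values of a carrier and its paralog (y axis, a scale of its own in each panel) in each mouse (points), with the mean and SD of each group (bar and whisker, n = 4). In the Slc25a12 over Slc25a13 panel the Con A mice, from -2.63 to -1.95, lie above the controls, from -3.78 to -3.18.

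The enzymes that use what these carriers move were counted in lists, in the same limma fit. Over all genes, 19.5% rose and 19.2% fell after Con A. With MSCs against Con A, 4.2% of all genes were higher and 4.38% lower. All 7 genes of citrate use and lipogenesis fell after Con A, with a median log2 fold change of -2.12: Scd1, the stearoyl-CoA desaturase, was at -3.31 (3 of the 4 control mice stood at the tied largest value, 341028, so this size is not exact), Fasn, the fatty acid synthase, at -3.14 (adjusted p = 2.01e-06) and Elovl6, an elongase, at -2.47. None was called between Con A + MSCs and Con A (2 had an unadjusted p below 0.05, and the median was -0.46). The citrate exporter Slc25a1, at -0.57 after Con A, lay above the whole range of these 7 genes, -3.31 to -1.22.

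Of 8 genes of glutamate and glycine metabolism 7 fell after Con A (median log2 fold change of -1.70), against 19.2% of all genes. Among them were Glul, glutamine synthetase, at -2.52 and Gls2, liver glutaminase, at -2.34. Gcsh, of the glycine cleavage system, fell by 1.43 (adjusted p = 1.76e-05) and was the 1 gene of the list that was higher with MSCs than with Con A alone, at 0.67 (adjusted p = 0.027, lost without Con A mouse 1 or 4 or MSCs mouse 2 or 3, where it was at most 0.0831). In the urea cycle 3 of 6 genes fell after Con A. Otc, which joins ornithine and carbamoyl phosphate in the matrix, had means of 10669.8 ± 2274.9 in Ctrl, 1175.8 ± 349 in Con A and 4387.5 ± 3157.8 in Con A + MSCs (SD, n = 4), with log2 fold changes of -3.21 (adjusted p = 4.02e-05) and then 1.68 (adjusted p = 0.027). The second call on Otc was lost without Con A mouse 1, 3 or 4 or MSCs mouse 1, 2 or 3 (adjusted p at most 0.0825). Ass1, which joins citrulline to the aspartate that citrin exports, and Asl, which cleaves the product, gave -2.44 and -0.96 after Con A, and 0.13 and 0.05 with MSCs, not called. The call on Asl was lost without Ctrl mouse 1 or 4 or Con A mouse 1, 2 or 3 (adjusted p at most 0.0974). Cps1, named after its values were seen, had the same value, 147960, in each mouse and carries no comparison.

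Of the malate-aspartate shuttle enzymes 1 of 4 was called: Mdh1, cytosolic malate dehydrogenase, fell by 0.80 after Con A (adjusted p = 0.00156) and was higher by 0.66 with MSCs (adjusted p = 0.0317, and at most 0.0903 without Con A mouse 1, 3 or 4 or MSCs mouse 1, 2 or 3, where the call was lost). Of 5 carnitine shuttle genes 2 rose after Con A (19.5% of all genes rose and 19.2% fell). Slc22a5, the plasma membrane carnitine importer, was at 2.19 (adjusted p = 7.64e-05) and then -1.05 with MSCs (adjusted p = 0.0431), and Crat, carnitine acetyltransferase, at 1.00 and -0.10. The second call on Slc22a5 was lost without mouse 2, 3 or 4 of Ctrl, 1, 3 or 4 of Con A or 1, 2 or 3 of the MSCs group (adjusted p at most 0.116). Of 11 genes of mitochondrial iron, heme and iron-sulfur clusters 3 fell after Con A, the porphyrin transporter Abcb6 most (-1.38), then ferrochelatase Fech (-0.82), and 1 was lower with MSCs than with Con A alone. This was Alas1, the first enzyme of heme synthesis, named after its values were seen, at -1.06 (adjusted p = 0.0352), lost without Con A mouse 1, 3 or 4 or MSCs mouse 1, 2 or 3 (adjusted p at most 0.0923).

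Other proteins of the mitochondrial membranes gave mixed counts, beside 19.5% of all genes rising and 19.2% falling after Con A. Of 16 measured transporters of other families 1 rose and 5 fell after Con A (median log2 fold change of -0.35): the pyruvate carrier subunit Mpc2 was at -1.43 (adjusted p = 4.14e-05) and then higher with MSCs at 0.89 (adjusted p = 0.0218, lost without Con A mouse 1 or MSCs mouse 2 or 3, where it was at most 0.0744), Sfxn5 was at -2.13, and the translocator protein gene Tspo was at 1.13. Of 15 genes that import carriers into the inner membrane 3 rose and none fell, led by the receptors Tomm70a (0.97, adjusted p = 0.00122) and Tomm20 (0.90, adjusted p = 0.00104), and none was called with MSCs (5 had an unadjusted p below 0.05). Of 3 carrier relatives without the Slc25a name 1 fell, Mtch1, at -0.73, and none was called with MSCs (1 had an unadjusted p below 0.05). Of 12 genes that stand for mitochondrial content 2 rose and 3 fell after Con A, with a median of -0.20, and none was called with MSCs (2 had an unadjusted p below 0.05, median 0.10). Sdhb, of succinate dehydrogenase, Cs, citrate synthase, and Uqcrc2, of respiratory complex III, fell most (-1.22, -0.95 and -0.69). The genes that rose, named after their values were seen, were the chaperone Hspd1 and Hadhb of fatty acid oxidation (0.64 and 0.59). Both went under the fold limit without Con A mouse 3, Hspd1 also without Con A mouse 2, and Hadhb also without Con A mouse 1 or Ctrl mouse 1.

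**Figure D4:**
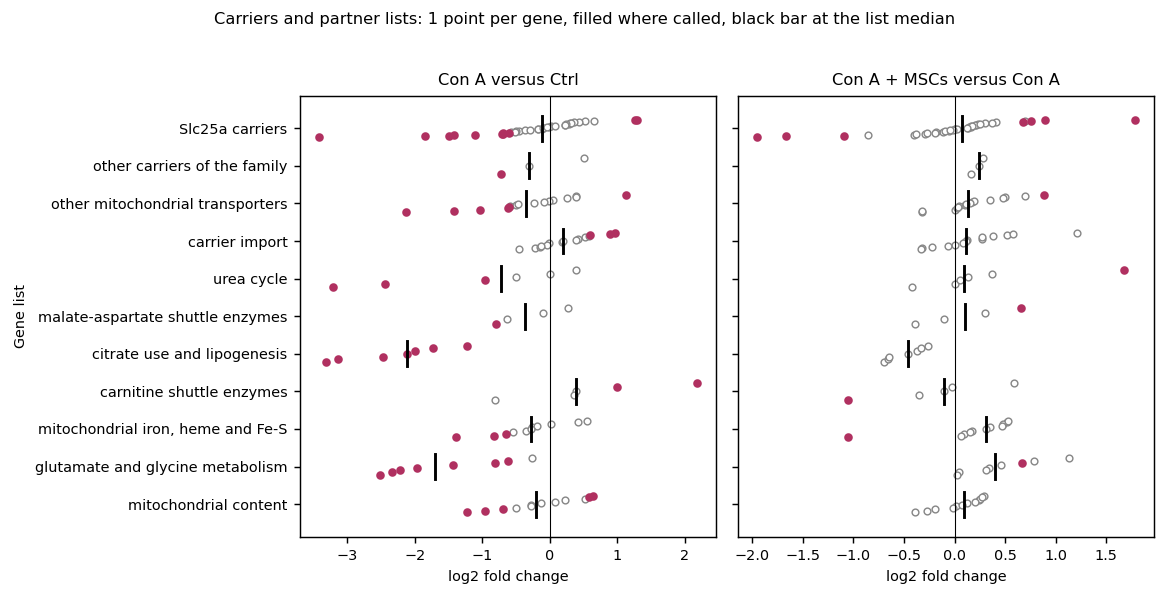
Log2 fold change (x axis) of each gene (points, filled where called) of the carrier family and of the 10 partner lists (y axis), with the list median as a black bar, for Con A against Ctrl on the left and Con A + MSCs against Con A on the right. On the left all 7 genes of citrate use and lipogenesis are called and lie at or below -1.22, while the carriers spread from -3.42 to 1.29 around a median of -0.11.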

How the data were processed

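Poly-A selected liver RNA of 12 mice (4 per group) was sequenced as 150 bp paired-end reads. The submitters' processing notes name Bowtie2 2.2.1, RSEM 1.2.18 and the mm10 build, and the methods of the study name DESeq2 for its own tests. The deposited table holds a whole-number score per gene and mouse: expression values that the authors had already normalized between mice and rounded, by a method not given in the sources used here. Sorted values are nearly the same in each mouse, so the values are not read counts, no count model was used, and the depth is unknown.

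Values were tested as log2(value + 1) over all 11289 genes with limma 3.58.1 (R 4.3.3; lmFit and eBayes with a trend) in 1 model of the 12 mice without covariates. A gene was called at an adjusted p below 0.05 and a fold above 1.5. The script was tested on simulated data. Alternatives were a pseudocount of 10, a minimum mean of 100, median centring, quantile normalization, no trend, only the 8 mice compared, unadjusted p, a fold above 2, a replicate block and leaving out each mouse. Ratios of paralogs were tested by exact permutation (scipy 1.17.1). Members called in either of the first 2 comparisons are given in every mouse, other members by ranges, means, log2 fold changes or ratios, and up to 3 genes per partner list. The members, the lists and the rule for named genes were chosen with earlier results of these data known. Mice are separate animals per the labels, which name no pairing by number. Gene positions are the table's (mm10), transcript lengths GENCODE M21, and promoters RefSeq on GRCm38.p6; protein sequences were not used here. The values of 1 member are not reported here, although it is included in the counts.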

Additional observations from a re-analysis of the deposited data

Results flagged for a closer look

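In each of the 108 sets of 4 mice (36 carriers in 3 groups), the highest and the lowest mouse were compared with the other 3 by Dixon's gap over the range, and 9 sets had a mouse that stood apart. Chance gives about 1 in 20. Con A mouse 4 stood apart for 3 carriers: Slc25a11 at 828 (others 908 to 917), Slc25a44 at 635 (others 778 to 798) and Slc25a37 at 1081 (others 831 to 857). MSCs mouse 2 was high for Slc25a11 at 1176 (others 1004 to 1017) and for Slc25a15 at 4019 (others 3624 to 3681). MSCs mouse 3 was low for Slc25a24 at 28 (others 40 to 42) and for Slc25a42 at 1198 (others 1550 to 1592). Con A mouse 2 was low for Slc25a47 at 2642 (others 3440 to 3584). Ctrl mouse 3 was low for Slc25a1 at 4030, where the other 3 share 4452, a tied value of the normalized table. The gap over the range lay between 0.847 and 1.000 in these 9 sets.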

How the results depend on the processing

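With a fold above 2, 7 carriers were called after Con A (2391 of all genes), 4 with MSCs against Con A (353) and 4 with MSCs against Ctrl (1539). With only the 8 mice compared in the fit, 4 carriers were called with MSCs against Con A (722 of all genes), with no trend 5 (830), and at an unadjusted p 1697 of all genes were. Leaving out 1 mouse at a time gave 10 to 12 carriers after Con A (4093 to 4575 of all genes), 0 to 8 with MSCs against Con A (7 to 1575) and 7 to 11 with MSCs against Ctrl (2654 to 3254). No called carrier changed direction under any alternative. Same-numbered mice did not deviate together throughout (correlations from -0.118 to 0.375), and not every mouse correlated best with its own number. This check cannot exclude a block that same-numbered mice share, and the labels name none. The fit with a replicate block called 11, 7 and 10 carriers in the 3 comparisons and 1297 genes in all with MSCs against Con A, against 969 without it.

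The deposited values already share a median and nearly share their sorted values, so median centring and quantile normalization barely alter them, and the unchanged 11, 7 and 9 called carriers say nothing about other scalings. The values carry no counts, so the precision rests on 4 mice per group, and ties among strongly expressed genes hide small changes there. The MSCs comparison with Con A depends on single mice as given above.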
